A study of Homo sapiens with 8 samples.

Results

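Glycolysis and its hypoxia-linked genes were followed through 2 clones of a glioblastoma cell line that differ in the localization of Survivin, with and without temozolomide (TMZ). The 35 members were taken by gene symbol from a list of glycolytic enzymes, their transporters and regulators, and targets of the oxygen-sensing pathway. The rule that picks them uses no measured value. All 35 symbols were found among the 26364 genes of the count table, of which 19501 had a read in at least 1 library. 34 members were among the 14201 genes with enough reads to be tested, and carbonic anhydrase CA9 was not.

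LN229 is an established human glioblastoma line, and TMZ is the alkylating drug used to treat this tumor. Clone Surv-GFP (D6) was derived by transfection with a plasmid for wild-type Survivin fused to eGFP, which has a functional nuclear export sequence (NES) and lies mainly in the cytoplasm. Clone SurvNESmut-GFP (L2) carries the same fusion with leucines of the NES replaced by alanine, and its Survivin lies mainly in the nucleus. The 4 groups hold 2 libraries each, lettered a and b, and are the clones without drug and after 48 h in 50 µM TMZ. All groups still have their own BIRC5, the gene of Survivin, and all grew in medium with serum and G418, the selection drug. TMZ came from a stock in DMSO, and the labels do not say whether the untreated cells received DMSO. Each plasmid is represented by 1 single-cell clone, so a difference between the clones cannot be told apart from a difference due to the NES.

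Glycolysis splits glucose into pyruvate through a chain of enzymes, most of which exist as several isoenzymes encoded by separate genes. Tumor cells often run this route fast even with oxygen present and release the product as lactate. When oxygen is low, the hypoxia-inducible factors, which are kept low in normal oxygen by the prolyl hydroxylases of the EGLN family, bind short DNA elements and raise many glycolytic genes together with genes of pH control, mitophagy and collagen modification. Glioblastomas are known for hypoxic zones with strong expression of this program. These cultures were not described as hypoxic.

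Between 15826923 and 18861603 reads per library fell on genes. BIRC5, plasmid and endogenous reads together, stood at 1113 to 2029 CPM (counts per 1e+06 reads, scaled by TMM) in Surv-GFP. In SurvNESmut-GFP it stood at 253 to 414 CPM, so the clones also differ in its level. Upon TMZ, BIRC5 rose by 0.81 ± 0.05 (SE) on the log2 scale in Surv-GFP and fell by 0.67 ± 0.05 in SurvNESmut-GFP. The difference of these TMZ effects was -1.48 ± 0.06, and the part of BIRC5 in the results was not tested. CDKN1A, the p21 gene that p53 induces upon DNA damage, rose upon TMZ in both clones, by 3.52 ± 0.07 (SE) on the log2 scale in Surv-GFP and 1.96 ± 0.07 in SurvNESmut-GFP. Of the markers of the cell line, VIM, NES, CD44 and EGFR were read in every library, while GFAP (0 to 17 reads) and SOX9 (0 to 3 reads) were near 0. S100B, a glial marker, and the neural transcription factor genes SOX2 and OLIG2 were also read in every library and were lower in all 4 SurvNESmut-GFP libraries than in any Surv-GFP library. Untreated, S100B had 798 and 756 CPM in Surv-GFP and 41.2 and 40.1 CPM in SurvNESmut-GFP. With TMZ it had 248 and 279 against 14.3 and 19.3 CPM. SOX2 had 88.8 and 92.6 against 33.6 and 35.2 CPM untreated, and 54.3 and 54.5 against 19.4 and 19.7 CPM with TMZ. OLIG2 had 35.2 and 32.7 CPM in untreated Surv-GFP. With TMZ it had 17.4 and 17.2 CPM in Surv-GFP against 8.07 and 5.55 CPM in SurvNESmut-GFP. Their part in the results was not tested. Markers of blood, epithelium, endothelium and muscle had at most 16 reads in any library apart from CD68, with 216 to 357 reads.

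Hypoxia-inducible factors recognize the letters ACGTG and GCGTG, and the windows around the transcription starts show how the members are equipped with them. RefSeq windows of 300 bases (250 before and 50 after the start, build GRCh38.p14) were found for 30 of the 35 members, and for genes with several windows the first listed was used. On either strand, ACGTG stood in 14 of 30 (46.7%) and GCGTG in 14 of 30 (46.7%), against 21.4% and 36.5% of all 35116 windows. Either was found in 22 of 30 (73.3%), against 48.4% of all windows. The shares of all windows count every window of a gene, while each member counts once, so the 2 shares are not of the same kind. The other 8 windows, with neither, are those of SLC16A3, HK1, PFKM, PFKP, TPI1, PGAM1, PDK1 and EGLN3. SLC16A3 has 5 windows, HK1 and PFKM 7 each, PFKP 4, and TPI1 and PDK1 2 each. Their further windows were not searched, so these genes may hold a match at another start. Of the 6 windows below, 5 were picked among those with a match. The first window of SLC16A3, the member with the largest difference between the clones, holds none. LDHA and BNIP3 fell upon TMZ in both clones, ANKRD37 and P4HA1 passed the test only in SurvNESmut-GFP, and PFKFB4 rose in both. Capitals mark each match (CACGT and CACGC are the same letters read on the other strand, and CACGTG is a match on both strands, counted as 2).
LDHA, chr11:18394313-18394612, plus strand: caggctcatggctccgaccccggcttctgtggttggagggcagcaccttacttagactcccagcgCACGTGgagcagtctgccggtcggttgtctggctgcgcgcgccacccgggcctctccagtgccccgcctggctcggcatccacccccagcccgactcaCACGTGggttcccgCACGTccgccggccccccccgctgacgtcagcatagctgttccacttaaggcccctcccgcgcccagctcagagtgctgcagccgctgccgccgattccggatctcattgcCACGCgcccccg
BNIP3, chr10:131981874-131982173, minus strand: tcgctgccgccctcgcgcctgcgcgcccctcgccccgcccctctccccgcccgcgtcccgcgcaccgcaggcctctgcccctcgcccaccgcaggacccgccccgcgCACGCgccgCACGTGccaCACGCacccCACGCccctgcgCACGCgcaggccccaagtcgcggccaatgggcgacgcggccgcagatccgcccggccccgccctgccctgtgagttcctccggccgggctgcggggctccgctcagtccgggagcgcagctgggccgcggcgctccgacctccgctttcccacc
ANKRD37, chr4:185396591-185396890, plus strand: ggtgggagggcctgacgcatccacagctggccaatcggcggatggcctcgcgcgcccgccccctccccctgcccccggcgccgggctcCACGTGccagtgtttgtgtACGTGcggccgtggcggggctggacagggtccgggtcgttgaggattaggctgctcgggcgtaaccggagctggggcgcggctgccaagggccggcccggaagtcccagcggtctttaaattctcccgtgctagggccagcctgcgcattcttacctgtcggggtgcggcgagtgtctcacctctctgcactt
P4HA1, chr10:73096817-73097116, minus strand: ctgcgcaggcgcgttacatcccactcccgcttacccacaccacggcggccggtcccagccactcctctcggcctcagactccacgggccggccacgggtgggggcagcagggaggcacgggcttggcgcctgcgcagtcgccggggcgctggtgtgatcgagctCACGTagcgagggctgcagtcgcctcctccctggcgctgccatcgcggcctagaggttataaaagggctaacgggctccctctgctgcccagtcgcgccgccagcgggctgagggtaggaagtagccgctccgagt
PFKFB4, chr3:48556754-48557053, minus strand: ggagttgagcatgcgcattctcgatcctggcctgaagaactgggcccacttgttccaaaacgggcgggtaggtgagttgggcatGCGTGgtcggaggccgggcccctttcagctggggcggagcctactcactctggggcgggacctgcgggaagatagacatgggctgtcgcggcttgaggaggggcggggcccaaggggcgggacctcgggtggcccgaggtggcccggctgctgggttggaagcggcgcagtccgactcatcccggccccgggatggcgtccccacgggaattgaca
SLC16A3, chr17:82228185-82228484, plus strand: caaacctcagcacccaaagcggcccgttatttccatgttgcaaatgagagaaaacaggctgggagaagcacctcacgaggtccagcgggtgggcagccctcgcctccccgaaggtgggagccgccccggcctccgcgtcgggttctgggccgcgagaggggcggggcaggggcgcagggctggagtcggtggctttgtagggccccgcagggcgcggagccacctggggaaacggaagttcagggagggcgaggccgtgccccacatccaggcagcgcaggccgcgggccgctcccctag

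The LDHA window held 5 matches to ACGTG and 1 to GCGTG, and the BNIP3 window 2 and 4. ANKRD37 had 3 and P4HA1 1 match to ACGTG, and PFKFB4 had 1 match to GCGTG. The matches are letters in a window and no measure of binding.

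Upon TMZ, most of the glycolytic chain fell in both clones. In Surv-GFP, 21 of the 34 members tested were lower and 9 higher by edgeR's quasi-likelihood F test at a Benjamini-Hochberg adjusted p of 0.05, while 58.9% of all genes tested were called, 28.9% lower and 30.1% higher. The median log2 fold change of the members was -0.32 against 0.00 for all genes. In SurvNESmut-GFP, 19 members were lower and 2 higher, with 37.8% of all genes called, 19.1% lower and 18.6% higher, and the median of the members was -0.22. The share of all genes with each pair of calls was not computed, so the joint counts that follow describe the members only. 15 members fell in both clones and 2 rose in both, namely PFKP and PFKFB4. 4 fell in SurvNESmut-GFP without passing the test in Surv-GFP, 6 fell in Surv-GFP without passing it in SurvNESmut-GFP, and 7 rose in Surv-GFP without passing it in SurvNESmut-GFP. The 35 genes together took 1.33 and 1.34% of all gene reads in untreated Surv-GFP and 1.033 and 1.005% with TMZ, and in SurvNESmut-GFP the share was 1.51 and 1.52% untreated and 1.28 and 1.28% with TMZ. In RNA of whole cultures, fewer cells expressing a gene and less RNA of it per cell cannot be told apart.

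**Figure D1:**
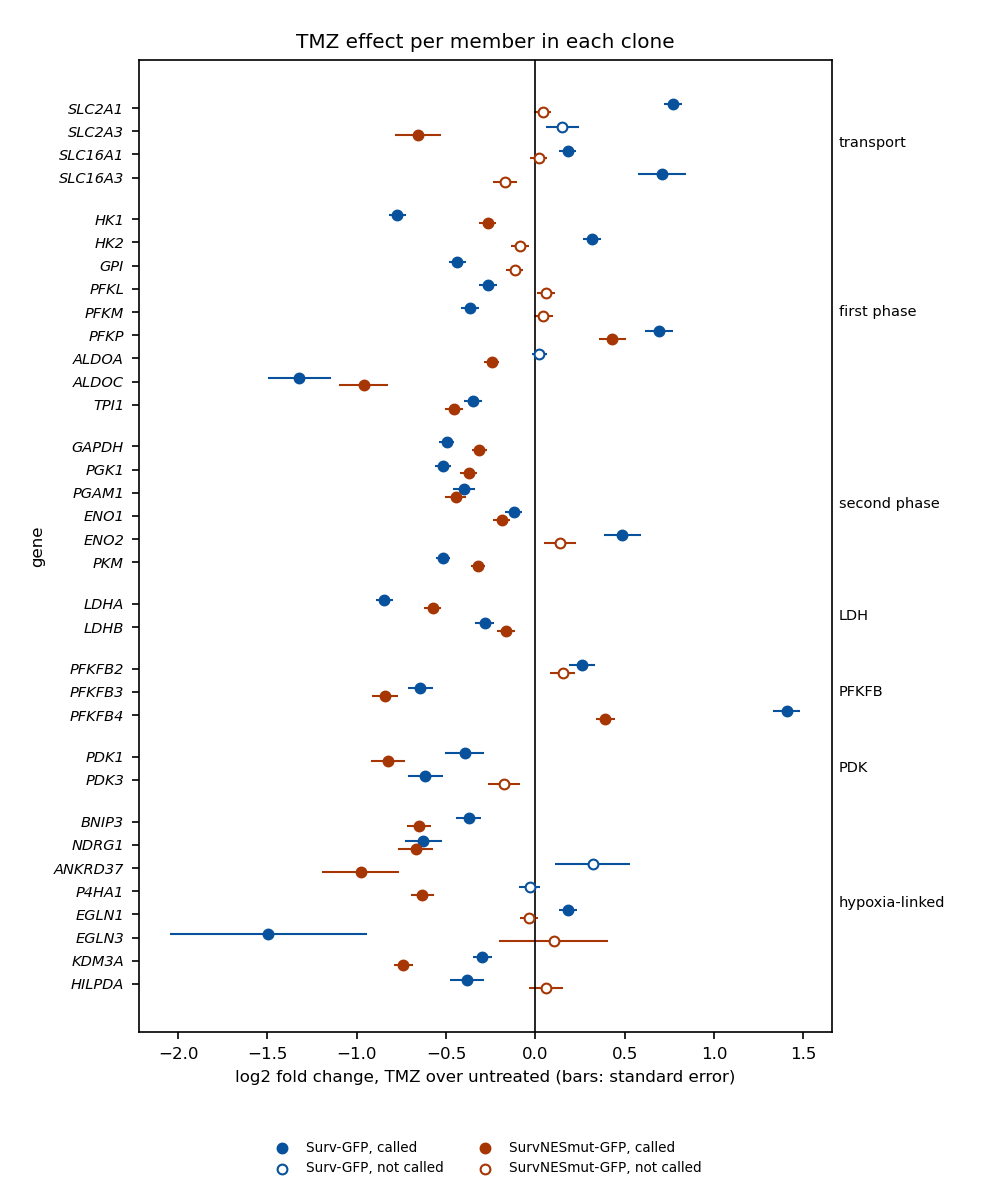
Log2 fold change of TMZ over untreated (horizontal axis) for the 34 members tested, grouped by role, in Surv-GFP (blue) and SurvNESmut-GFP (brown), with bars for the standard error and filled points for an adjusted p of 0.05 or less. Most points lie left of 0 in both clones, while SLC2A1, SLC16A3 and PFKFB4 lie furthest right in Surv-GFP, with PFKFB4 at 1.41.

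Unlike most members, the transporters did not fall in Surv-GFP. 3 of 4 rose in Surv-GFP and none fell, and in SurvNESmut-GFP none rose and 1 fell. Of all genes tested, 30.1% rose and 28.9% fell in Surv-GFP, and 18.6% rose and 19.1% fell in SurvNESmut-GFP. The counts of this role and of the roles below are to be read against these shares. With so few genes in a role, they are a description. SLC2A1, the main glucose importer GLUT1, had 92.6 and 98.7 CPM in untreated Surv-GFP and 164 and 162 CPM with TMZ, against 288 and 271 CPM in untreated SurvNESmut-GFP and 288 and 287 CPM with TMZ. It thus rose 1.70-fold in Surv-GFP (edgeR adjusted p = 2.83e-09), while the log2 difference in SurvNESmut-GFP was 0.04 with a 95% interval from -0.07 to 0.15. The untreated SurvNESmut-GFP libraries lay above every Surv-GFP library, with or without TMZ.

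SLC16A3, which encodes MCT4, the exporter of lactate in glycolytic cells, separated the clones more than any other member. It had 6.99 and 6.62 CPM in untreated Surv-GFP and 11.1 and 11.2 CPM with TMZ, but 133 and 113 CPM in untreated SurvNESmut-GFP and 106 and 113 CPM with TMZ. The level in untreated SurvNESmut-GFP was 18.1-fold that of untreated Surv-GFP (log2 difference 4.18 ± 0.10, edgeR adjusted p = 3.42e-15). TMZ raised it in Surv-GFP by 0.71 ± 0.13 on the log2 scale. In SurvNESmut-GFP the change of -0.17 ± 0.07 narrowly missed the threshold (edgeR adjusted p = 0.0504). It passed with DESeq2's size factors (edgeR adjusted p = 0.046), with no filter (0.022) and with a robust prior (0.042). That change was -0.05 without untreated library a, -0.29 and past the threshold without untreated library b, and it passed without TMZ library b at -0.21. Its exons share 482 bases with CSNK1D on the opposite strand, and whether the counting kept strands apart is not stated. Exons of PFKM share 628 bases with SENP1 and those of PFKFB2 315 with YOD1 on the opposite strand, and those of PFKFB4 289 with UCN2 on the same strand.

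SLC2A3, the neuronal high-affinity glucose importer GLUT3, was the reverse of SLC16A3. Untreated Surv-GFP had 21.7 and 20.7 CPM and TMZ-treated Surv-GFP 24.5 and 22.5 CPM, whereas SurvNESmut-GFP had 10.7 and 10.7 CPM untreated and 6.08 and 7.56 CPM with TMZ. It fell upon TMZ in SurvNESmut-GFP by 0.66 on the log2 scale and was 0.15 ± 0.09 higher, short of the threshold, in Surv-GFP. SLC16A1, the monocarboxylate carrier MCT1, rose by 0.18 ± 0.05 in Surv-GFP and changed by 0.02 ± 0.05, short of the threshold, in SurvNESmut-GFP.

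**Figure D2:**
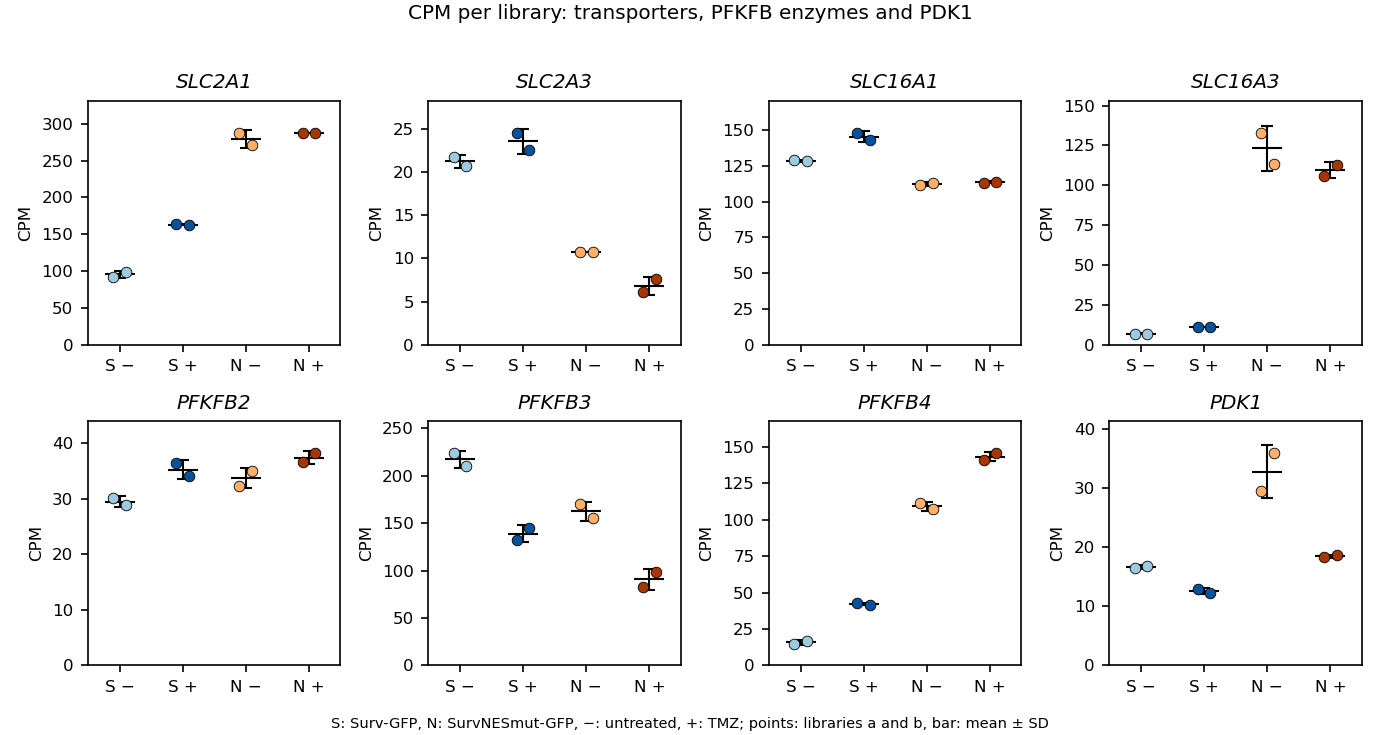
CPM (vertical axis, from 0) in each of the 8 libraries for the 4 transporters, the 3 PFKFB enzymes and PDK1, with the mean and SD of each pair. SLC16A3 and PFKFB4 are higher in all 4 SurvNESmut-GFP libraries than in any Surv-GFP library, and SLC2A3 is lower in all 4.

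In the first phase of glycolysis, which uses ATP to split glucose into triose phosphates, 6 of 9 members fell and 2 rose in Surv-GFP, and 4 fell and 1 rose in SurvNESmut-GFP. HK1, the hexokinase that most tissues use to trap glucose, had 227 and 237 CPM in untreated Surv-GFP and 136 and 136 CPM with TMZ. In SurvNESmut-GFP it went from 199 and 201 CPM to 168 and 165 CPM. The treated libraries lay below the untreated ones in both clones, with a fall of 0.77 on the log2 scale in Surv-GFP and of 0.27 in SurvNESmut-GFP. HK2, the hexokinase induced in many tumors, rose in Surv-GFP from 110 ± 3.33 to 138 ± 3.84 CPM (SD, n = 2) and was 113 ± 2.86 and 106 ± 1.31 CPM in SurvNESmut-GFP, which did not pass the test.

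The 3 phosphofructokinases, which catalyze the committed step, did not move together. PFKP, the platelet type, rose from 134 and 142 CPM to 233 and 212 CPM in Surv-GFP and from 278 and 269 CPM to 407 and 330 CPM in SurvNESmut-GFP. These are rises of 0.69 ± 0.08 and 0.43 ± 0.08 on the log2 scale, and the second was 0.27, still called, without TMZ library a. PFKM, the muscle type, had 138 and 131 CPM in untreated Surv-GFP and 103 and 106 CPM with TMZ, but 81.0 and 78.0 CPM in untreated SurvNESmut-GFP and 80.8 and 83.1 CPM with TMZ. It thus fell in Surv-GFP towards the range that SurvNESmut-GFP had without and with TMZ, though it did not reach it. PFKL, the liver type, fell by 0.27 in Surv-GFP and changed by 0.06 ± 0.05 in SurvNESmut-GFP, short of the threshold. GPI, which turns glucose 6-phosphate into fructose 6-phosphate, fell by 0.44 in Surv-GFP, against -0.12 ± 0.05 in SurvNESmut-GFP, which did not pass.

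The aldolases, which split the hexose, also moved unequally. ALDOC, the brain type, had 10.0 and 8.55 CPM in untreated Surv-GFP and 3.42 and 4.02 CPM with TMZ, and 18 and 17 CPM in untreated SurvNESmut-GFP and 7.54 and 10.5 CPM with TMZ. This is a fall of 1.32 ± 0.18 and of 0.96 ± 0.14 on the log2 scale, with no overlap between untreated and treated libraries of a clone. ALDOA, the abundant ubiquitous type, was 756 ± 0.716 and 767 ± 17.2 CPM in Surv-GFP and fell by 0.24 in SurvNESmut-GFP. TPI1, which interconverts the triose phosphates, went from 533 and 555 CPM to 430 and 425 CPM in Surv-GFP and from 641 and 694 CPM to 481 and 492 CPM in SurvNESmut-GFP. Its fall was 0.35 and 0.46 on the log2 scale.

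In the second phase, which returns ATP, 5 of 6 members fell in each clone. GAPDH, often used as a reference gene, fell by 0.50 in Surv-GFP, from 3823 ± 122 to 2709 ± 27.7 CPM (SD, n = 2), and by 0.32 in SurvNESmut-GFP, from 2912 ± 37.7 to 2341 ± 72.9 CPM. PGK1, the first ATP-forming enzyme, went from 415 and 422 CPM to 295 and 289 CPM in Surv-GFP and from 510 and 504 CPM to 388 and 395 CPM in SurvNESmut-GFP. PKM, the pyruvate kinase whose isoforms these gene counts do not separate, went from 2524 and 2575 CPM to 1785 and 1777 CPM in Surv-GFP. In SurvNESmut-GFP, PKM went from 3939 and 4088 CPM to 3227 and 3190 CPM, so that its treated libraries still lay above the untreated Surv-GFP ones. PGAM1, the phosphoglycerate mutase, went from 49.3 and 52.0 CPM to 38.0 and 38.9 CPM in Surv-GFP and from 68.4 and 64.5 CPM to 49.7 and 47.8 CPM in SurvNESmut-GFP.

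The enolases parted. ENO1, the ubiquitous enolase, fell by 0.12 in Surv-GFP and by 0.19 in SurvNESmut-GFP, the smallest falls called in this phase. Without untreated library b the fall in Surv-GFP was 0.08 and not called (edgeR adjusted p = 0.28), and it also lost the call without either treated library (0.055 and 0.095). ENO2, the neuronal enolase, had 17.3 and 18.8 CPM in untreated Surv-GFP and 28.3 and 22.1 CPM with TMZ, and 37.6 and 40.8 CPM in untreated SurvNESmut-GFP and 43.1 and 43.1 CPM with TMZ. It rose by 0.49 ± 0.10 in Surv-GFP (0.29 and still called without TMZ library a), and the change of 0.14 ± 0.09 in SurvNESmut-GFP did not pass. Processed copies of several of these genes exist in the reference (62 of GAPDH, 13 of PGAM1, 6 of LDHA and 5 of PKM), and the treatment of reads that fit both a gene and its copies is not stated.

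Both lactate dehydrogenase genes fell in both clones. LDHA, whose subunit favors the reduction of pyruvate to lactate, went from 1133 and 1170 CPM to 663 and 618 CPM in Surv-GFP, a fall of 0.85 ± 0.05 (edgeR adjusted p = 1.81e-10). In SurvNESmut-GFP it went from 1258 and 1270 CPM to 836 and 860 CPM, a fall of 0.58 ± 0.05. No treated library of either clone overlapped an untreated one. LDHB, whose subunit favors the opposite direction, went from 508 and 529 CPM to 433 and 417 CPM in Surv-GFP and from 547 and 602 CPM to 511 and 513 CPM in SurvNESmut-GFP. The fall of LDHB in SurvNESmut-GFP, 0.17 on the log2 scale, was 0.10 and not called without untreated library b (edgeR adjusted p = 0.23).

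The PFKFB enzymes make and break fructose 2,6-bisphosphate, the strongest activator of phosphofructokinase, and 2 of them moved in opposite directions upon TMZ. PFKFB4 had 14.7 and 17.1 CPM in untreated Surv-GFP and 42.6 and 41.5 CPM with TMZ, a rise of 2.65-fold (edgeR adjusted p = 1.23e-10). In SurvNESmut-GFP it had 111 and 107 CPM untreated and 141 and 146 CPM with TMZ, a rise of 1.31-fold. The 4 SurvNESmut-GFP libraries lay above all Surv-GFP libraries, and the untreated clones differed 6.89-fold. PFKFB3, the isoform with the highest kinase activity, fell from 224 and 211 CPM to 132 and 145 CPM in Surv-GFP and from 170 and 156 CPM to 83.1 and 98.6 CPM in SurvNESmut-GFP. PFKFB2, the heart isoform, rose by 0.26 ± 0.07 in Surv-GFP and was 0.15 ± 0.07 higher, not called, in SurvNESmut-GFP. The rise of PFKFB2 lost its call without untreated library b (edgeR adjusted p = 0.054) or TMZ library a (0.065) and under DESeq2 (0.057).

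The pyruvate dehydrogenase kinases hold pyruvate back from the mitochondria by switching off pyruvate dehydrogenase. PDK1, a well-known hypoxia target, had 16.4 and 16.9 CPM in untreated Surv-GFP and 13.0 and 12.3 CPM with TMZ, and 29.6 and 35.9 CPM in untreated SurvNESmut-GFP and 18.3 and 18.6 CPM with TMZ. PDK3 had 17.9 and 19.4 CPM in untreated Surv-GFP and 11.8 and 12.6 CPM with TMZ, against 23.1 and 20.9 CPM in untreated SurvNESmut-GFP and 19 and 20.04 CPM with TMZ. PDK1 fell in both clones, by 0.40 and by 0.83 on the log2 scale, and PDK3 fell by 0.62 in Surv-GFP with -0.18 ± 0.09, not called, in SurvNESmut-GFP.

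**Figure D3:**
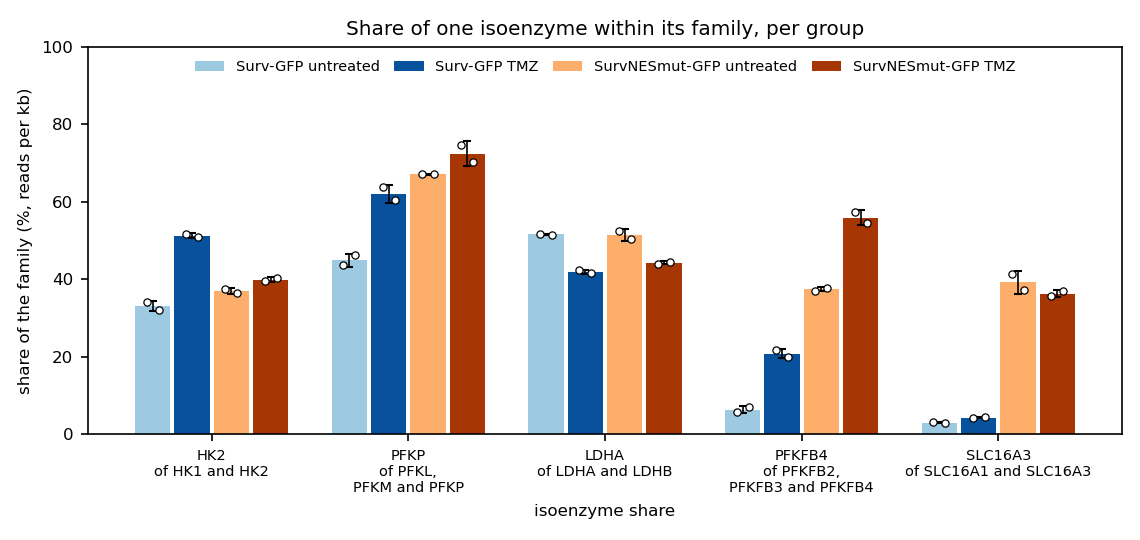
Share of 1 isoenzyme in the reads per kilobase of its family (vertical axis, percent, from 0) in the 4 groups, as the mean of 2 libraries with the SD and each library as a point. The PFKFB4 share rises from 6.35% in untreated Surv-GFP to 56.0% in SurvNESmut-GFP with TMZ, and the LDHA share is lower with TMZ in both clones.

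Set per kilobase of all annotated exons of a gene, the makeup of several families shifted. The level of a share depends on these lengths, which are not those of the transcripts expressed. By reads alone the SLC16A3 share in untreated SurvNESmut-GFP was 54.5 and 50.1%. The LDHA share in untreated Surv-GFP was 69.0 and 68.9% by reads. HK2 made up 33.1 ± 1.38% of HK1 and HK2 in untreated Surv-GFP and 51.3 ± 0.658% with TMZ (SD, n = 2), against 37.0 ± 0.724% and 40.0 ± 0.588% in SurvNESmut-GFP. PFKP made up 45.0 ± 1.68% of the phosphofructokinases in untreated Surv-GFP and 62.1 ± 2.34% with TMZ, against 67.2 ± 0.105% and 72.5 ± 3.15% in SurvNESmut-GFP. PFKFB4 took 6.35 ± 0.875% and 20.8 ± 1.13% of the 3 PFKFB genes in Surv-GFP without and with TMZ, and 37.5 ± 0.495% and 56.0 ± 1.98% in SurvNESmut-GFP. Over the same groups the PFKFB3 share was 86.6, 68.7, 55.6 and 35.3%, so PFKFB4 led the family only in TMZ-treated SurvNESmut-GFP among the 4 groups. LDHA made up 51.6 ± 0.127% of LDHA and LDHB in untreated Surv-GFP and 42.0 ± 0.563% with TMZ, and 51.4 ± 1.501% and 44.3 ± 0.393% in SurvNESmut-GFP. SLC16A3 made up 3.04 ± 0.101% and 4.33 ± 0.144% of both monocarboxylate carriers in Surv-GFP but 39.3 ± 2.98% and 36.3 ± 0.920% in SurvNESmut-GFP. These shares are given as a description, and no test was run on them. Levels per kilobase in untreated Surv-GFP ran from 0.108 CPM per kb for EGLN3 to 1283 CPM per kb for GAPDH among the members tested.

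Of the hypoxia-linked members outside glycolysis, 5 of the 8 tested fell in each clone, but partly other genes. NDRG1, a stress-induced growth regulator, had 92.1 and 75.2 CPM in untreated Surv-GFP and 47.8 and 60.7 CPM with TMZ, and 147 and 132 CPM in untreated SurvNESmut-GFP and 82.0 and 93.0 CPM with TMZ. KDM3A, a histone H3 lysine demethylase, went from 89.5 and 94.4 CPM to 74.8 and 74.9 CPM in Surv-GFP and from 105 and 107 CPM to 62.1 and 65.2 CPM in SurvNESmut-GFP. Both genes fell in both clones, as did BNIP3, the mitophagy receptor, by 0.37 ± 0.07 in Surv-GFP and 0.65 ± 0.07 in SurvNESmut-GFP.

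ANKRD37, a small ankyrin-repeat protein gene that is a sensitive hypoxia target, was low throughout. It had 3.31 and 3.04 CPM in untreated Surv-GFP and 3.58 and 4.36 CPM with TMZ, and 5.80 and 4.0 CPM in untreated SurvNESmut-GFP and 2.51 and 2.46 CPM with TMZ. The treated libraries of SurvNESmut-GFP were the lowest of the 8, a fall of 0.98 ± 0.22, which was 0.69 and just missed the call without the higher untreated library a (edgeR adjusted p = 0.052). Its exons share 909 bases with UFSP2 on the opposite strand. P4HA1, the collagen prolyl hydroxylase subunit, was 148 ± 5.12 and 145 ± 3.89 CPM (SD, n = 2) in Surv-GFP without and with TMZ and fell by 0.63 ± 0.06 in SurvNESmut-GFP, from 131 ± 0.809 to 84.5 ± 9.31 CPM.

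The oxygen sensors themselves moved little or rested on few reads. EGLN1, the main prolyl hydroxylase of the hypoxia-inducible factors, rose by 0.18 ± 0.05 in Surv-GFP and changed by -0.04 ± 0.05 in SurvNESmut-GFP, short of the threshold. The rise was not called without untreated library a (edgeR adjusted p = 0.078) or TMZ library b (0.066). EGLN3 had only 16 and 13 reads in untreated Surv-GFP and 4 and 6 with TMZ, against 26 and 40 reads in untreated SurvNESmut-GFP and 25 and 39 with TMZ. Its fall in Surv-GFP of 1.49 ± 0.55 lost the call under DESeq2 (adjusted p = 0.059) and without untreated library a, untreated library b or TMZ library a in edgeR (adjusted p = 0.12, 0.054 and 0.17). HILPDA, a lipid droplet protein gene, fell by 0.38 ± 0.10 in Surv-GFP and changed by 0.06 ± 0.10 in SurvNESmut-GFP, which did not pass. CA9, the cell surface carbonic anhydrase widely used as a hypoxia marker, had 1 and 4 reads in untreated Surv-GFP, 0 and 1 with TMZ, 4 and 4 in untreated SurvNESmut-GFP and 1 and 1 with TMZ. A library with 0 reads allows up to 3 by counting error, so no difference in CA9 was detectable at this depth. Exons of CA9 share 643 bases with ARHGEF39 on the opposite strand, so some of its reads may have been counted as ambiguous.

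**Figure D4:**
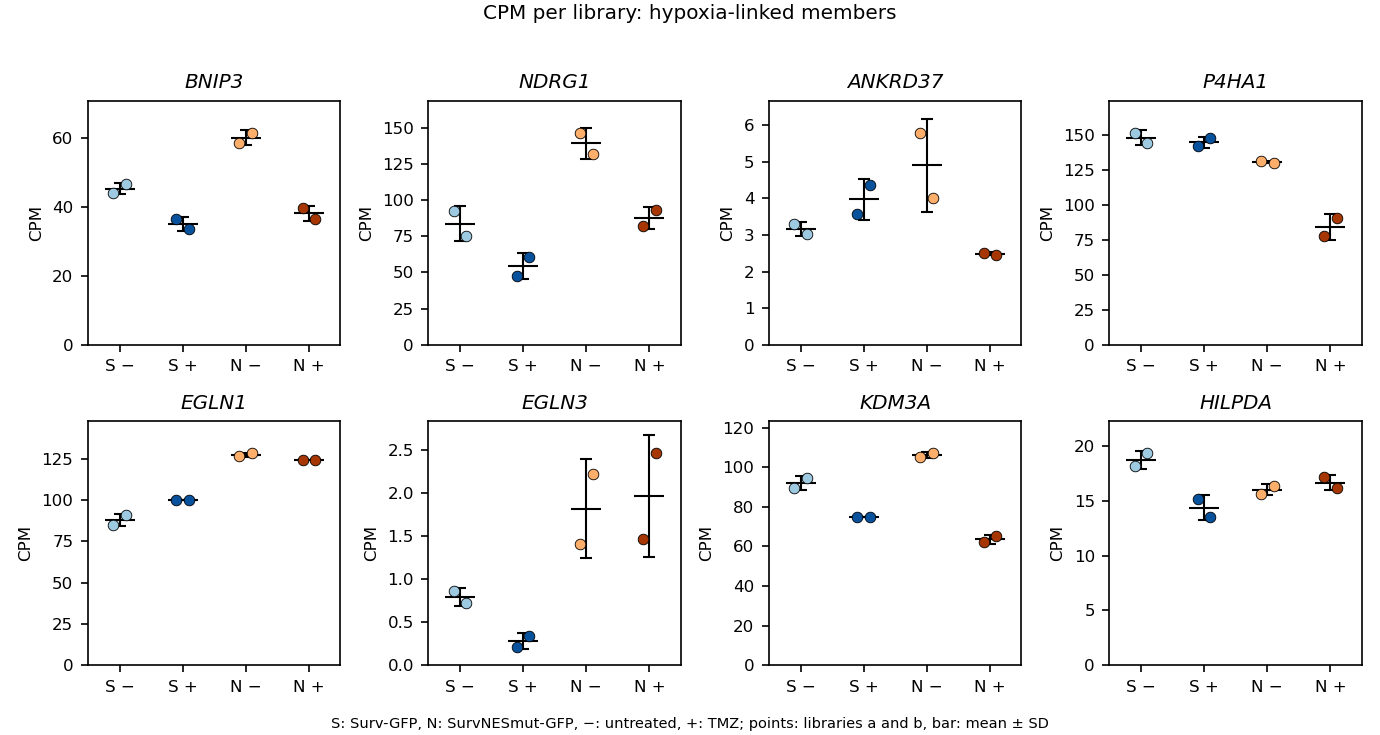
CPM (vertical axis, from 0) in each library for the 8 hypoxia-linked members tested, with the mean and SD of each pair. KDM3A and P4HA1 have their lowest values in SurvNESmut-GFP with TMZ, and EGLN3 reaches at most 2.46 CPM in any of the 8 libraries.

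Next, the TMZ effects of the clones were set against each other by the difference of the log2 fold changes in the same model, SurvNESmut-GFP minus Surv-GFP. 21 of 34 members differed, 12 with a lower and 9 with a higher value in SurvNESmut-GFP, while 36.8% of all genes were called, 20.2% lower and 16.6% higher. The median of the members was -0.11 against 0.00 for all genes. The transporters stood on the lower side, with SLC16A3 at -0.88 ± 0.15, SLC2A3 at -0.81 ± 0.16 and SLC2A1 at -0.73 ± 0.07. PFKFB4 at -1.01 ± 0.09 (edgeR adjusted p = 4.49e-07) and HK2 at -0.41 ± 0.07 were also lower in SurvNESmut-GFP, and each of these 5 had risen in Surv-GFP except SLC2A3. ALDOA differed by -0.27 ± 0.06.

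Of the hypoxia-linked members, ANKRD37 at -1.30 ± 0.30, P4HA1 at -0.60 ± 0.09 and KDM3A at -0.44 ± 0.07 fell further in SurvNESmut-GFP than they moved in Surv-GFP. On the higher side, where the fall in Surv-GFP was deeper or had no called counterpart, stood HK1 at 0.51 ± 0.07, PFKM at 0.41 ± 0.07, PFKL at 0.32 ± 0.07, GPI at 0.32 ± 0.07 and LDHA at 0.27 ± 0.07. PGK1 at 0.14 ± 0.06, PGAM1 at -0.05 ± 0.09, ENO1 at -0.07 ± 0.07 and TPI1 at -0.11 ± 0.07 did not pass. The 95% interval was 0.01 to 0.28 for PGK1, whose p missed the threshold only after adjustment (edgeR adjusted p = 0.0889), and the intervals of the other 3 lay between -0.25 and 0.14. The difference of EGLN3, 1.60 ± 0.63, missed the threshold (edgeR adjusted p = 0.0586), but passed it in 6 alternatives, with library size alone (edgeR adjusted p = 0.049), no filter (0.032), the CPM filter (0.049), the replicate block (0.042), and without SurvNESmut-GFP untreated library b (0.042) or TMZ library a (0.015).

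7 of the 21 differences lost their call in at least 1 alternative, most of them in several. Under DESeq2 those of PDK1, PDK3, BNIP3, EGLN1 and HILPDA were not called (DESeq2 adjusted p = 0.11, 0.082, 0.15, 0.092 and 0.095). With library size alone those of PDK1, BNIP3 and EGLN1 were not called (edgeR adjusted p = 0.056, 0.088 and 0.079), nor was that of GAPDH with edgeR 4 quasi-likelihood (0.051). The highest adjusted p with a library left out was 0.13 for GAPDH (log2 difference of 0.18 with all libraries), without untreated Surv-GFP library a, and 0.063 for PKM (log2 difference of 0.19), without untreated Surv-GFP library b. It was 0.14 for PDK1 (log2 difference of -0.43) without untreated SurvNESmut-GFP library b, and 0.079 for PDK3 (log2 difference of 0.44) without untreated Surv-GFP library b. For BNIP3 (log2 difference of -0.28) it was 0.16 without TMZ-treated Surv-GFP library a, for EGLN1 (log2 difference of -0.22) 0.11 without untreated Surv-GFP library a, and for HILPDA (log2 difference of 0.44) 0.075 without untreated Surv-GFP library b. The other 14 kept their call in every alternative tried, 9 lower and 5 higher. Some differences not called with all libraries passed in an alternative. That of ENO2 (-0.35 ± 0.14) passed in 5, and was -0.48 without TMZ-treated Surv-GFP library b (edgeR adjusted p = 0.0069) but -0.16 without TMZ-treated Surv-GFP library a (0.4). That of PFKP (-0.26 ± 0.11) passed with no filter (edgeR adjusted p = 0.024), and was -0.42 without TMZ-treated SurvNESmut-GFP library a (6.2e-05) and -0.12 without library b (0.24). Without TMZ-treated SurvNESmut-GFP library a that of ALDOC was 0.59 (edgeR adjusted p = 0.028), without library b that of PFKFB3 was -0.32 (0.0036), and that of PGK1 was 0.20 with library size alone (0.022) and 0.19 with the CPM filter (0.026).

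In the untreated state, most members were already higher in SurvNESmut-GFP than in Surv-GFP. 24 of 34 were higher and 8 lower, with 64.1% of all genes called, 34.7% higher and 29.4% lower, and the median of the members was 0.29 against 0.03 for all genes. These comparisons and the TMZ effects share the untreated libraries, so their values are set side by side and not related to each other. SLC16A3 (4.18 ± 0.10), PFKFB4 (2.78 ± 0.07), SLC2A1 (1.55 ± 0.05), EGLN3 (1.19 ± 0.36), ENO2 (1.12 ± 0.10), PFKP (0.99 ± 0.08) and PDK1 (0.97 ± 0.10) led the higher side. SLC2A3 (-0.98 ± 0.10), PFKM (-0.76 ± 0.05), PFKFB3 (-0.42 ± 0.07) and GAPDH (-0.39 ± 0.04) led the lower side. Among the abundant enzymes ENO1 was 1.55-fold and PKM 1.57-fold higher in SurvNESmut-GFP, while HK2 and PFKL did not differ beyond their error, with 95% intervals from -0.07 to 0.14 and from -0.08 to 0.13. 24 of the 32 calls held in every alternative. The other 8 were EGLN3, ANKRD37, LDHA, LDHB, PFKFB2, PDK3, P4HA1 and HILPDA, and the highest adjusted p with a library left out was 0.23 for ANKRD37 without SurvNESmut-GFP library a and 0.14 for EGLN3 without SurvNESmut-GFP library b. For LDHB and PFKFB2 it was 0.25 and 0.21 without SurvNESmut-GFP library b, for LDHA and P4HA1 0.13 and 0.13 without Surv-GFP library a, for PDK3 0.21 without SurvNESmut-GFP library a and for HILPDA 0.21 without Surv-GFP library b. With library size alone LDHA was 0.08 rather than 0.13 and LDHB 0.09 rather than 0.15 higher, neither called (edgeR adjusted p = 0.16 and 0.13). PFKFB2 and PDK3 also lost the call there (edgeR adjusted p = 0.12 and 0.086). Under DESeq2, EGLN3, ANKRD37, LDHA, LDHB, PFKFB2, PDK3 and HILPDA were not called (DESeq2 adjusted p = 0.072, 0.1, 0.068, 0.066, 0.22, 0.22 and 0.15).

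With TMZ, 21 members were higher and 9 lower in SurvNESmut-GFP, with 69.2% of all genes called, 34.5% higher and 34.7% lower, and the median of the members was 0.33. SLC16A3 (3.30 ± 0.09), EGLN3 (2.78 ± 0.46), PFKFB4 (1.77 ± 0.06) and ALDOC (1.28 ± 0.18) led the higher side, and SLC2A3 (-1.79 ± 0.11), P4HA1 (-0.78 ± 0.06) and ANKRD37 (-0.67 ± 0.23) the lower side. ANKRD37, KDM3A and HK1 were called on opposite sides in the 2 states: ANKRD37 was 0.63 higher untreated (0.34 and not called without SurvNESmut-GFP library a) and KDM3A 0.21 higher, and both were lower with TMZ, whereas HK1 was lower untreated (-0.21 ± 0.05) and higher with TMZ (0.29 ± 0.05). ANKRD37 was the 1 call of 30 that did not hold in every alternative (DESeq2 adjusted p = 0.064, edgeR adjusted p = 0.11 without TMZ-treated Surv-GFP library b).

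**Figure D5:**
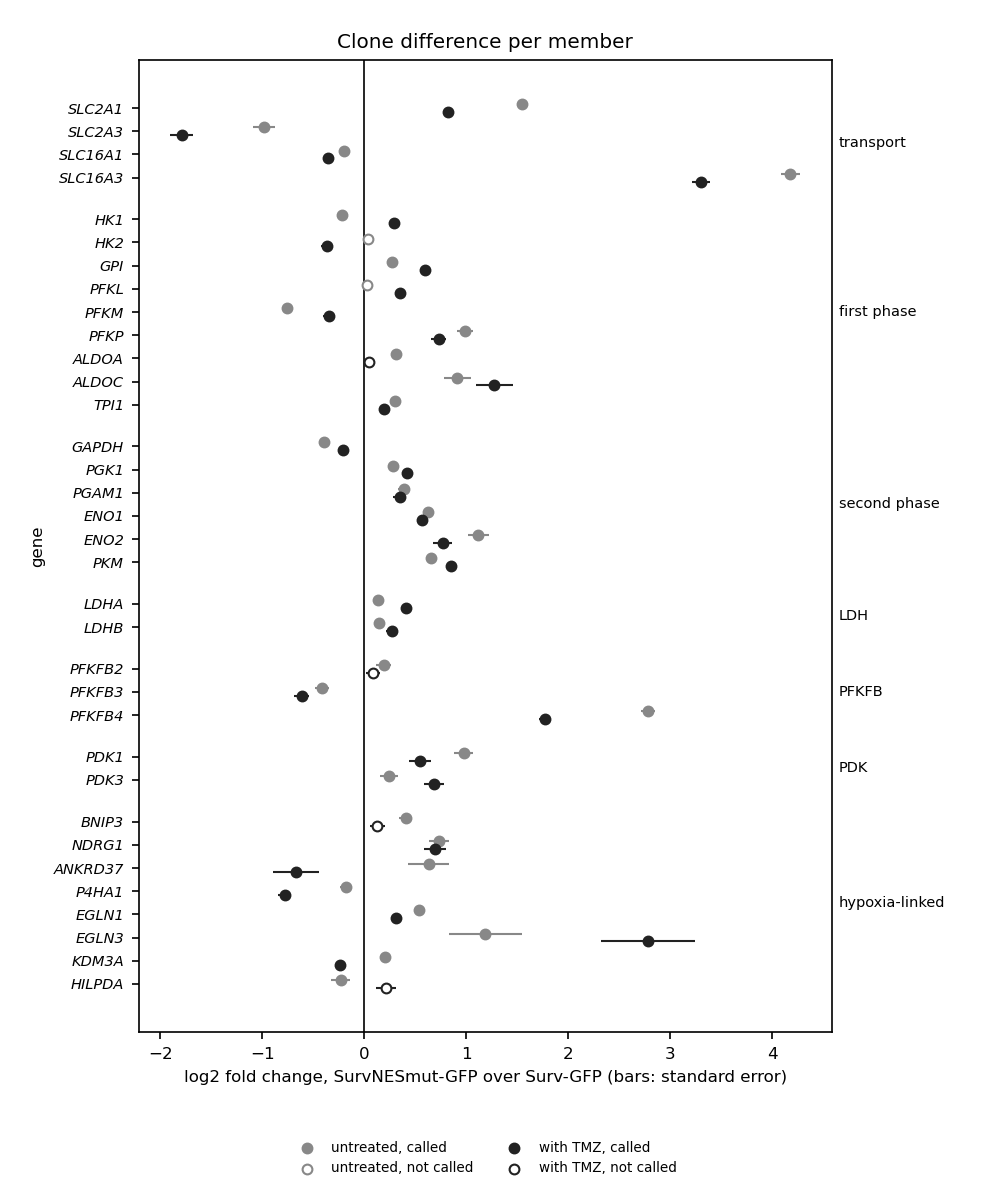
Log2 fold change of SurvNESmut-GFP over Surv-GFP (horizontal axis) for the 34 members tested, untreated (gray) and with TMZ (black), with bars for the standard error and filled points for an adjusted p of 0.05 or less. SLC16A3 lies furthest right in both states, at 4.18 and 3.30, and SLC2A3 furthest left, at -0.98 and -1.79.

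Around these members, 93 further genes of the same pathways were present in the table and 75 were tested. Upon TMZ, 20 rose and 26 fell in Surv-GFP, and 17 rose and 28 fell in SurvNESmut-GFP. In Surv-GFP these are 26.7 and 34.7%, near the 30.1 and 28.9% of all genes, and in SurvNESmut-GFP 22.7 and 37.3%, against 18.6 and 19.1% of all genes. The counts of the single groups are to be read against the same shares. Of 9 other glycolysis isoenzymes tested, 1 rose and 4 fell in Surv-GFP and 1 rose and 2 fell in SurvNESmut-GFP. Of the 7 genes of the pentose phosphate branch, which draws off glucose 6-phosphate, none rose and 4 fell in Surv-GFP, and 2 rose and 3 fell in SurvNESmut-GFP. Of 11 genes for the entry of pyruvate into mitochondria, 3 rose and 3 fell in Surv-GFP and 1 rose and 3 fell in SurvNESmut-GFP. Of 9 genes of gluconeogenesis and glycogen, 4 rose and 2 fell in Surv-GFP and 1 rose and 5 fell in SurvNESmut-GFP. Of 30 other hypoxia targets, 7 rose and 12 fell in Surv-GFP and 8 rose and 13 fell in SurvNESmut-GFP.

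Unlike most members, the hypoxia targets VEGFA and STC2 rose strongly. VEGFA, the angiogenic factor, had 19.24 and 18.99 CPM in untreated Surv-GFP and 217 and 209 CPM with TMZ, and 50.8 and 48.7 CPM in untreated SurvNESmut-GFP and 168 and 153 CPM with TMZ. STC2, a secreted glycoprotein gene, had 7.64 and 9.05 CPM in untreated Surv-GFP and 136 and 127 CPM with TMZ, and 90.0 and 88.3 CPM in untreated SurvNESmut-GFP and 328 and 240 CPM with TMZ. The rise of VEGFA was 11.1-fold and 3.23-fold, and that of STC2 15.8-fold and 3.18-fold. The difference between the clones was called for both (-1.79 ± 0.09 and -2.31 ± 0.18).

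PDK4, the kinase of the same family that is induced by fasting, fell in both clones, by 2.19 ± 0.16 in Surv-GFP and 1.46 ± 0.15 in SurvNESmut-GFP. SLC2A12 is a minor glucose transporter gene whose exons share 1736 bases with TBPL1 on the opposite strand. SLC2A12 fell to 0 and 3 reads from 10 and 9 in Surv-GFP. In SurvNESmut-GFP it fell to 26 and 31 reads from 72 and 68. Its fall in Surv-GFP was not called without TMZ library a, which has 0 reads (edgeR adjusted p = 0.096). CA12, the carbonic anhydrase related to CA9, went down from 69 and 57 reads to 26 and 19 in Surv-GFP and up from 10 and 9 reads to 17 and 22 in SurvNESmut-GFP, a difference of 2.63 ± 0.45. The rise of CA12 in SurvNESmut-GFP (1.17 ± 0.38) was not called under DESeq2 (adjusted p = 0.096) or without untreated library a, untreated library b or TMZ library b in edgeR (adjusted p = 0.086, 0.11 and 0.14). VLDLR, a lipoprotein receptor gene, rose by 1.16 ± 0.11 in SurvNESmut-GFP and was 0.06 ± 0.10 higher, not called, in Surv-GFP.

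Of 9 hypoxia-inducible factors and regulators tested, 5 rose and 1 fell in Surv-GFP and 4 rose and 2 fell in SurvNESmut-GFP. HIF1A, the alpha subunit of the main factor, is given here although it was chosen after its values were seen. It had 419 and 443 CPM in untreated Surv-GFP and 663 and 626 CPM with TMZ, against 970 and 966 CPM in untreated SurvNESmut-GFP and 567 and 636 CPM with TMZ. TMZ thus raised it by 0.58 ± 0.06 in Surv-GFP and lowered it by 0.69 ± 0.06 in SurvNESmut-GFP on the log2 scale, and the difference was -1.27 ± 0.08 (edgeR adjusted p = 5.48e-09). Untreated SurvNESmut-GFP had 2.25-fold the HIF1A level of untreated Surv-GFP, while with TMZ the difference was -0.10 ± 0.06 and not called, though it was -0.22 and called without TMZ-treated SurvNESmut-GFP library b. HIF1A is controlled mainly at its protein, which was not measured in these data. EGLN2, another prolyl hydroxylase of the family, had 0 to 5 reads per library and was not tested. Its exons share 2012 bases with the readthrough gene RAB4B-EGLN2 on the same strand, so its reads may have been counted as ambiguous, and the low count does not show that the gene is silent.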

How the data were processed

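RNA of LN229 clones was sequenced on the Illumina platform, and per the labels and columns 8 libraries formed 4 groups of 2. The authors deposited unnormalized read counts per gene symbol, with no genome build, strandedness or counting program given in the sources used here. STAR 2.5.0b, Cufflinks 2.2.1 and edgeR are named in the submitters' processing notes, with no role. Reads assigned to no gene (11.2 to 14.3% of all reads counted, these included) or ambiguous (1.19 to 1.28%) were left out. The 5 deposited comparison tables, holding the authors' log2 fold changes, F, p and FDR, were not used.

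Counts were analyzed in R 4.3.3 with edgeR 4.0.16 (TMM, filter by group, 1 model of 4 group means on 8 libraries, legacy quasi-likelihood F test, Benjamini-Hochberg over 14201 genes) and limma 3.58.1. Standard errors were derived from F, and 95% intervals used the degrees of freedom of the fit. DESeq2 1.42.0, other scalings, filters and priors, a block by letter and leaving out each library were alternatives. Exon lengths were the union of all exons annotated for a gene in the reference annotation. The code was tested on simulated data. The study describes independent biological replicates in technical duplicates, and the labels do not say which of these the letters a and b are, so p-values measure the spread between letters, which may be technical. All pairs of letters differed beyond sampling noise (chi-square over df from 2.20 to 5.74). The pair of TMZ-treated SurvNESmut-GFP differed most, with 5.74 against 2.20 to 2.66 in the other groups. It enters each TMZ effect in SurvNESmut-GFP, each difference of TMZ effects and each comparison of the clones with TMZ.

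Members and lists were chosen with earlier results of these data known. Values per library are given for the 2 members of each role with the largest TMZ effect or difference and for those near 0 reads. Of other pathway genes, the 2 called with the largest change in each direction are named. Limits at 0 reads cover counting error only.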

Additional observations from a re-analysis of the deposited data

Results flagged for a closer look

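27 results for the members and the further genes named above are listed here. In each, the TMZ effects of the clones differed by the test of the difference itself (SurvNESmut-GFP minus Surv-GFP, log2 scale, edgeR adjusted p of 0.05 or less). Among the transporters these were SLC2A1 (-0.73), SLC2A3 (-0.81) and SLC16A3 (-0.88). In glycolysis they were HK1 (0.51), HK2 (-0.41), GPI (0.32), PFKL (0.32), PFKM (0.41), ALDOA (-0.27), GAPDH (0.18), PKM (0.19) and LDHA (0.27). Of the regulators, PFKFB4 (-1.01), PDK1 (-0.43) and PDK3 (0.44) differed. The hypoxia-linked members were BNIP3 (-0.28), ANKRD37 (-1.30), P4HA1 (-0.60), EGLN1 (-0.22), KDM3A (-0.44) and HILPDA (0.44). Of the 75 other pathway genes tested, 15 had a higher and 22 a lower value (20 and 29.3%, against 16.6 and 20.2% of all genes). Only those named above were considered for this list, HIF1A after its values were seen. Of them, PDK4 (0.73), HIF1A (-1.27), VEGFA (-1.79), CA12 (2.63), STC2 (-2.31) and VLDLR (1.11) differed. Of the genes outside the members, PDK4 lost the call with a library left out (0.45, edgeR adjusted p = 0.17 without TMZ-treated Surv-GFP library a, 0.46, adjusted p = 0.13 without TMZ-treated SurvNESmut-GFP library b, adjusted p = 0.053 without untreated Surv-GFP library b and 0.069 without untreated SurvNESmut-GFP library b). HIF1A and CA12 were called in opposite directions in the 2 clones. With 2 libraries in each group, no group could be searched for a library far from the others.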

How the results depend on the processing

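17 alternatives were run, of which 8 left out 1 library each. The counts of members called higher and lower stayed within 1.5 times the reported count in each comparison and alternative. With library size alone in place of TMM the median of the members in the untreated clone comparison was 0.23 rather than 0.29, the only median to move by more than the typical standard error of a member. The letters did not pair the libraries, with correlations of the a minus b deviations between groups from -0.067 to 0.083. The replicate block ended 1 member's call, HILPDA in untreated clones (-0.23, adjusted p = 0.052), and brought EGLN3 past the threshold in the difference of TMZ effects (1.60, adjusted p = 0.042). No called member changed direction in any alternative. Uncalled values near 0 did. HK2 in untreated clones (0.04) was -0.021 with library size alone, -0.0078 with the filter of 1 CPM in 2 libraries, and -0.0016 to 0.068 with a library left out. PFKL there (0.03) was -0.0015 with DESeq2's size factors, -0.031 with library size alone, -0.0081 with no filter, -0.018 with the CPM filter, -0.00023 with DESeq2, -0.0091 with only the libraries compared, and -0.012 to 0.056 with a library left out. ALDOA upon TMZ in Surv-GFP (0.02) was -0.0015 with DESeq2's size factors, -0.0014 with no filter and -0.021 with the CPM filter. The difference of TMZ effects of PGAM1 was 0.0092 and that of NDRG1 0.014 with library size alone, and NDRG1 0.0036 with the CPM filter. Leaving out a library, they ran from -0.092 to 0.00015 and from -0.21 to 0.17. So did SLC2A1 in SurvNESmut-GFP (-0.0060 to 0.083), P4HA1 in Surv-GFP (-0.092 to 0.0043), EGLN3 in SurvNESmut-GFP (-0.30 to 0.46) and VLDLR in Surv-GFP (-0.011 to 0.096). The causes were not tested. With 2 libraries a group, and at most 40 reads per library for EGLN3 and 4 for CA9, small changes could not be resolved.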
